A study of Mus musculus with 4 samples.

Results

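Cohesin is the ring-shaped complex that holds DNA, and the 10 genes described here encode its somatic subunits, loaders and release factors. They are the ring genes Smc1a, Smc3 and Rad21, the subunit genes Stag1 and Stag2, the loader genes Nipbl and Mau2, and the release factor genes Wapl, Pds5a and Pds5b. They were picked out of the count tables by symbol, and all 10 are among the 49997 symbols in the count tables. All 10 were also among the 12783 genes with enough counts to be tested. Wild-type iMOP cells, immortalized otic progenitors of the mouse that can give rise to inner ear neurons, were sampled while proliferating and after differentiation into neurons. Total RNA was depleted of ribosomal RNA and sequenced as stranded libraries, 2 per group. Proliferating cells received basic FGF at 20 ng/ml, and neurons were kept in a different medium with the CDK2 inhibitor K03861 at 1 µM. All 4 cultures come from 1 immortalized line, which limits them as a model of inner ear neurons. The titles name biological replicates 1 and 2, and those of replicate 2 add that they belong to a set 2, so each group has 1 library from set 2 and 1 with no set named. Values below are given for replicate 1 and then for replicate 2.

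The SMC1A and SMC3 proteins form the arms of the ring and RAD21 closes it. STAG1 or STAG2 binds RAD21, and a complex holds one or the other. NIPBL with MAU2 loads cohesin and drives it to extrude loops of DNA, which stop at CTCF and so set the boundaries of topologically associating domains. WAPL, working with PDS5A or PDS5B, opens the ring and releases it. In dividing cells cohesin also holds sister chromatids together until anaphase, while neurons that have left the cell cycle use it for loops and gene regulation.

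In the GENCODE M21 annotation of GRCm38, the plus strand holds Smc1a at chrX:152016428-152062694, Smc3 at chr19:53600398-53645833, Stag1 at chr9:100597798-100959375, Stag2 at chrX:42149317-42277185, Wapl at chr14:34673928-34747983 and Pds5b at chr5:150673739-150810690. The minus strand holds Rad21 at chr15:51962240-51991747, Nipbl at chr15:8290617-8444463, Mau2 at chr8:70016123-70042734 and Pds5a at chr5:65605721-65698273. All 10 are protein-coding. Exons of Stag2 overlap the opposite-strand gene Gm37564 by 28 bases, and those of Pds5a overlap Gm42727 and Gm42729 by 374 bases. The strand setting of the counting is not given in the sources used here, so reads in these overlaps cannot be told apart.

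Each gene's levels over the 4 libraries were centred on their own mean on the log2 scale. Furthest from the mean of the 10 genes were Mau2, Stag2 and Rad21, at distances of 1.67, 0.91 and 0.66. The first 120 coding bases of each are shown, with G and C in capitals. They are from GENCODE M21 coding transcripts of the GRCm38 build. The Mau2 transcript shown has 2887 bases, whereas its longest transcript, used below for GC content and length, has 5369 bases. The stretch of Stag2 lies on the plus strand in 2 coding exons within chrX:42201951-42206121. That of Rad21 lies on the minus strand in 1 exon at chr15:51982553-51982672, and that of Mau2 on the minus strand in 1 exon at chr8:70042566-70042685.
Stag2: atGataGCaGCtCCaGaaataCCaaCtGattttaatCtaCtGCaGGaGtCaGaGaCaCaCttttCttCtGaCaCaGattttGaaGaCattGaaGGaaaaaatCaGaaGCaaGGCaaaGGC
Rad21: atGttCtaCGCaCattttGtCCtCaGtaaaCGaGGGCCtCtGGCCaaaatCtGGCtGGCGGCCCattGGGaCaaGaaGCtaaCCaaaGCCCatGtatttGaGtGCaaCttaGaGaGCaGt
Mau2: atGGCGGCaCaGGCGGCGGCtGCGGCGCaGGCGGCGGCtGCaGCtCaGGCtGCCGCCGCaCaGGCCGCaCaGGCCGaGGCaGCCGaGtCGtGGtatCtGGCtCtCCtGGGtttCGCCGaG
G and C made up 47 of these bases in Stag2, 59 in Rad21 and 89 in Mau2. Over the whole coding sequence the GC content was 41.0% in Stag2, 48.8% in Rad21 and 56.9% in Mau2, so the start of Mau2 is richer in G and C than the rest of it. Over the longest transcript of each gene, the 10 genes ranged from 38.1% in Stag2 to 51.9% in Mau2 with a median of 42.4%, below the median of 49.3% over 11597 tested genes with a matched transcript. Their longest transcripts, 3956 to 9423 bases, all exceeded the median of 3435 bases over those genes.

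The libraries held 7446361 to 14484011 counts, but the 18S ribosomal RNA gene took 53.3% to 76.1% of them, and 2595578 to 3850766 counts remained. The 18S share was 53.34% and 74.99% in proliferating cells and 59.35% and 76.10% in neurons, higher in replicate 2 in both groups. Genes with a count numbered 21605 and 17762 in proliferating cells and 21637 and 20012 in neurons. Proliferating replicate 2 had the fewest such genes and the fewest remaining counts, 2595578. The part of these differences in the cohesin values was not tested. Levels below are CPM, counts scaled to library size with TMM factors. Proliferating replicate 2 stood apart: it had 990 counts over the 10 genes, against 5287 in the other proliferating library and 5909 and 3481 in neurons. Scaled, these sums were 433.2 and 133.6 CPM in proliferating cells and 495.6 and 353.9 CPM in neurons. The labels were checked against markers. Of 12 neuronal markers, 10 were tested, 0 were called, 7 had a fold change above 0 and 3 below, and the summed level was 161.5 and 348.5 CPM in proliferating cells and 201.7 and 364.1 CPM in neurons. Tubb3 was highest in proliferating replicate 2, with 19.1 and 193.0 CPM in proliferating cells and 28.7 and 104.3 CPM in neurons, while Elavl4 had 7.54 and 12.1 CPM and then 17.7 and 37.9 CPM. Gap43 was at 0 counts in both neuron libraries. The summed level of 8 otic progenitor markers was 78.1 and 110.6 CPM in proliferating cells and 70.0 and 32.6 CPM in neurons. Sox2 and Sox9 made up most of it, and Pax2 and Pax8 were at 0 counts in all 4 libraries. Only 3 of the 8 were tested, with 0 called, 1 fold change above 0 and 2 below. The 8 glial markers summed to 137.6 and 62.4 CPM in proliferating cells and 50.7 and 17.2 CPM in neurons. Only 3 of the 8 were tested, and all 3 had a fold change below 0. Of these, 0 were called, or 1, Gfap, with the replicate block. Markers of dividing cells were present under the neuron label. Of 10 tested, 10 had a fold change above 0, as 52% of all tested genes had, and none was called. The summed level of these markers was 355.4 and 94.8 CPM in proliferating cells and 447.0 and 264.6 CPM in neurons. Proliferating replicate 2 had the lowest sum, and it was the lowest library for 9 of the 10 markers and for 37.8% of all tested genes. The part of dividing cells in the cohesin values was not tested. In such bulk samples, fewer cells of a type and less RNA per cell cannot be told apart.

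None of the 10 genes was called different between neurons and proliferating cells. In edgeR's quasi-likelihood test over 12783 genes, the adjusted p was 0.9998 for each of them, and of all tested genes 0% passed as higher and 0% as lower. An unadjusted p under 0.05 was found for 0 of the 10 genes and 3.43% of all tested genes. All 10 fold changes were above 0, as 52% of all tested genes were, with a median log2 fold change of 0.58 against 0.02 over all tested genes. Scaled by library size only, the median of all genes was -0.27 and that of the 10 genes was 0.11, and the values of Nipbl and Mau2 were negative. The standard errors, 0.45 to 0.81 on the log2 scale, show the precision that 2 libraries a group gave.

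Rad21, the ring subunit that separase cuts at anaphase, had 66.3 and 32.8 CPM in proliferating cells and 73.0 and 75.2 CPM in neurons. In TMM-scaled CPM both neuron libraries lay above both proliferating ones, which held for no other of the 10 genes and for 12.9% of all tested genes. In the deposited RPKM, however, Rad21 was higher in proliferating replicate 1 than in either neuron library. The fitted log2 fold change of Rad21 was 0.58 (SE 0.50), with a 95% interval of -0.59 to 1.75. Smc1a, an arm of the ring, had 30.2 and 11.5 CPM in proliferating cells and 36.7 and 23.7 CPM in neurons. Smc3, the other arm, had 37.0 and 9.58 CPM in proliferating cells and 42.5 and 22.4 CPM in neurons. For both arms the groups overlapped, since proliferating replicate 1 lay above neuron replicate 2. Their log2 fold changes were 0.53 (SE 0.58) and 0.47 (SE 0.69).

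Stag2, on the X chromosome, encodes the subunit most often lost in human tumours among cohesin genes. It had 58.8 and 8.50 CPM in proliferating cells and 66.3 and 49.5 CPM in neurons. The single low value, from 63 counts in proliferating replicate 2, was 6.79-fold below the other proliferating library. The log2 fold change of Stag2 was 0.78 with SE 0.81 and a 95% interval of -1.12 to 2.67. Its paralog Stag1 had 31.3 and 9.58 CPM in proliferating cells and 34.0 and 27.9 CPM in neurons, a log2 fold change of 0.59 (SE 0.61). The groups overlapped for both paralogs, with proliferating replicate 2 alone at the bottom.

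The loader subunits differed from each other. Nipbl, whose human counterpart is mutated in most cases of Cornelia de Lange syndrome, had 49.2 and 9.85 CPM in proliferating cells and 50.6 and 26.1 CPM in neurons. Mau2, which encodes its partner, had 17.5 and 20.5 CPM in proliferating cells and 17.7 and 20.8 CPM in neurons. Mau2 was thus level across all 4 libraries, while Nipbl was lower in both libraries of replicate 2. The log2 fold change of Nipbl was 0.37 (SE 0.76) and that of Mau2 was 0.02 (SE 0.45, 95% interval -1.03 to 1.06).

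In TMM-scaled CPM, all 3 release factor genes were lowest in proliferating replicate 2 and highest in neuron replicate 1. Wapl, which opens the ring, had 49.0 and 10.7 CPM in proliferating cells and 58.9 and 30.2 CPM in neurons. Pds5a had 49.9 and 11.5 CPM in proliferating cells and 64.6 and 40.1 CPM in neurons. Pds5b had 44.0 and 9.18 CPM in proliferating cells and 51.5 and 38.02 CPM in neurons. In each of the 3 genes proliferating replicate 1 lay between the neuron libraries, so the groups overlapped. The log2 fold changes were 0.57 (SE 0.74), 0.77 (SE 0.70) and 0.75 (SE 0.72) in the same order.

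**Figure D1:**
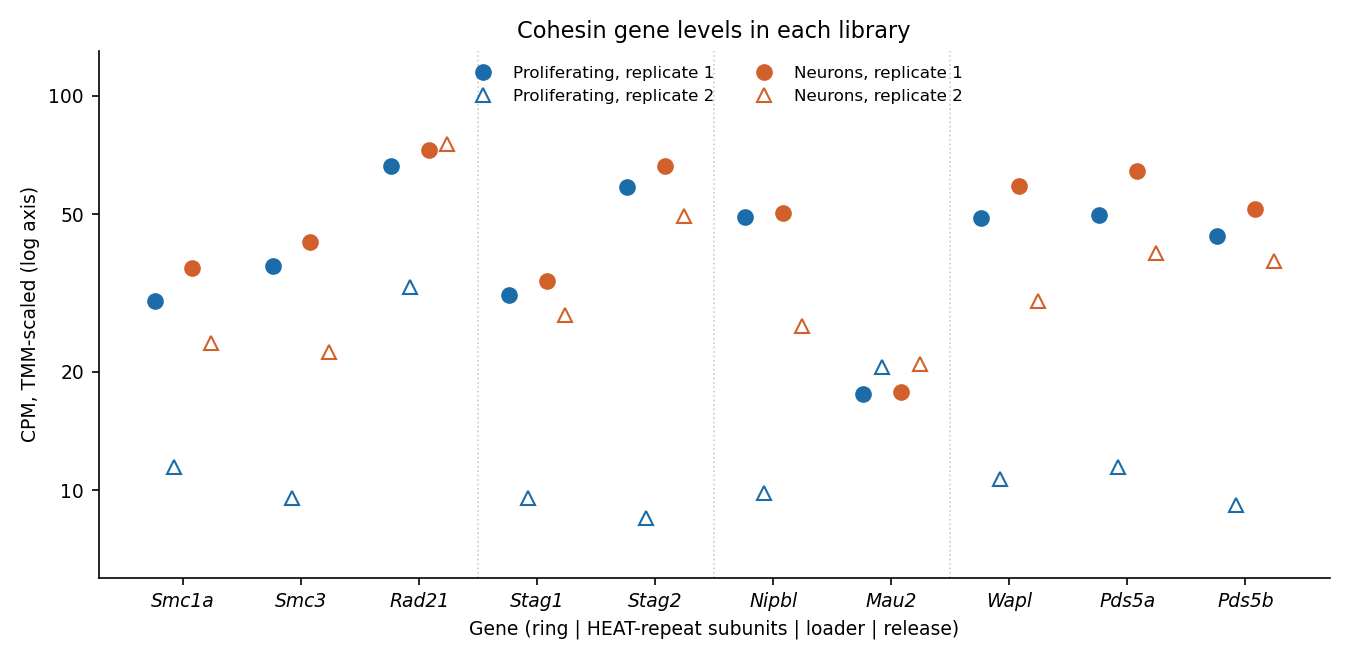
Level of each cohesin gene in TMM-scaled CPM (log axis), 1 point per library, with circles for replicate 1 and triangles for replicate 2. Proliferating replicate 2 is the lowest point for every gene but Mau2, whose 4 points lie between 17.5 and 20.8 CPM.

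Proliferating replicate 2 was the lowest of the 4 libraries for 9 of the 10 genes, as it was for 37.8% of all tested genes. Mau2 was the exception. Neuron replicate 1 was the highest in TMM-scaled CPM for 8 of the 10 genes and for 26.3% of all tested genes. In the deposited RPKM, scaled by the total count, proliferating replicate 1 was the highest for all 10 genes. Between the proliferating libraries, replicate 2 was at least 2-fold below replicate 1 for the same 9 genes, by 2.01-fold in Rad21 to 6.79-fold in Stag2. This held for 24.5% of all tested genes. Between the neuron libraries 0 of the 10 genes were at least 2-fold lower in replicate 2, against 10.1% of all tested genes. The largest rise there, in Mau2, was 0.23 on the log2 scale. The median log2 difference of the 10 genes, replicate 2 minus replicate 1, was -2.01 in proliferating cells and -0.53 in neurons.

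The comparison within each replicate pair, which sets 1 library against 1 and has no replicate check, separated the sets. In the replicate 1 pair the genes were 0.01 (Mau2) to 0.37 (Pds5a) higher in neurons on the log2 scale, with a median of 0.19. In the replicate 2 pair they were 0.02 (Mau2) to 2.51 (Stag2) higher, with a median of 1.44, against 0.07 over all tested genes. All 10 were higher in neurons in both pairs, as 28.8% of all tested genes were, but with library size alone the median of the replicate 1 pair was -0.19. At least 2-fold higher in the replicate 2 pair were 9 of the 10 genes and 20% of all tested genes. In the replicate 1 pair there were 0 of the 10 genes and 4.69% of all tested genes.

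**Figure D2:**
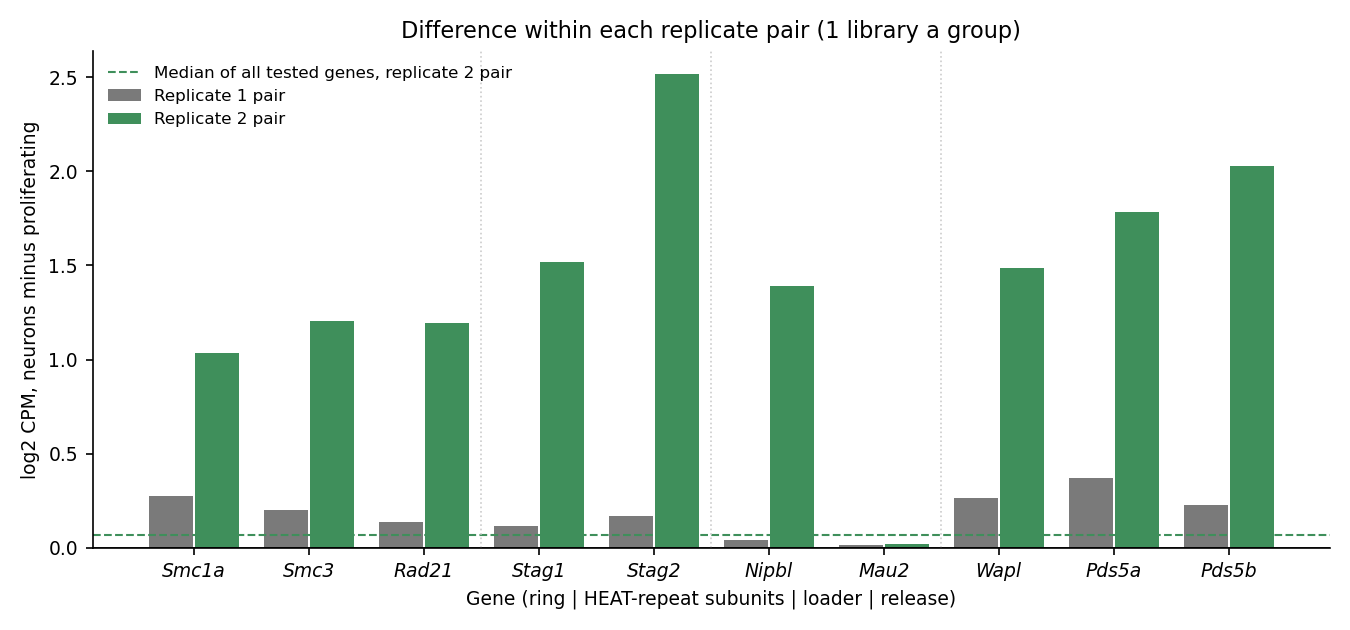
Difference in log2 CPM between neurons and proliferating cells within the replicate 1 pair (grey) and the replicate 2 pair (green) for each cohesin gene, with the median of all tested genes in the replicate 2 pair as a dashed line. The grey bars reach 0.37 at most, and 9 of the green bars exceed 1, while both bars of Mau2 are near 0.

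The fitted values moved with the library that was left out. Without proliferating replicate 2 the median log2 fold change of the 10 genes was -0.01, with values from -0.36 in Nipbl to 0.16 in Rad21. Without proliferating replicate 1 it was 1.84, and 9 of the 10 genes had an unadjusted p under 0.05 and a higher level in neurons, as did 12.3% of all tested genes. One of them, Stag2, was called there in edgeR's test, with a log2 fold change of 2.74 (SE 0.49, adjusted p = 0.0319), where 0.422% of all tested genes were called higher. That fit has 1 proliferating library, whose spread is taken to be like that of the neurons. With the replicate number as a block, 0 of the 10 genes and 0.0235% of all tested genes were called, and an unadjusted p under 0.05 was found for 0 of the 10 and 6.18% of all. A further fit had the block and a correction for gene length, taken as the length that the deposited RPKM implies. Stag2 alone then had an unadjusted p under 0.05 and a higher level in neurons, as did 3.25% of all tested genes. The Mau2 value lay between -0.12 and 0.14 over the 4 fits that each lacked a library.

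**Figure D3:**
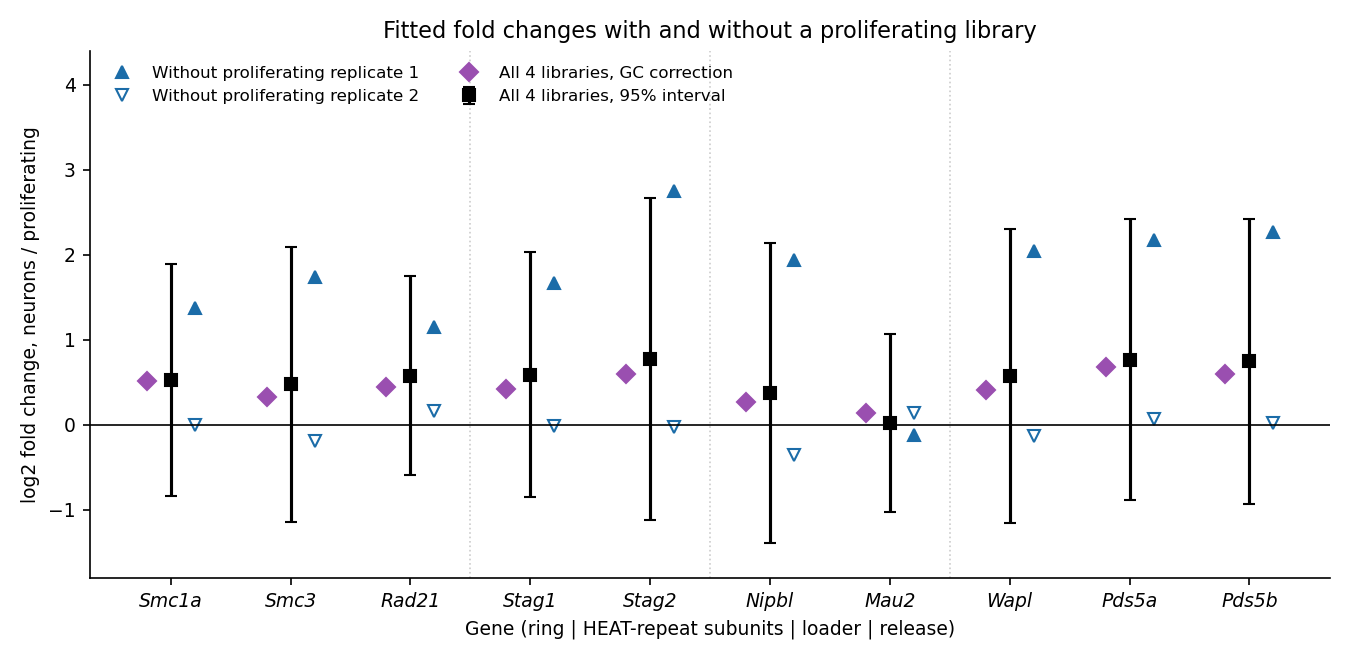
Log2 fold change of neurons against proliferating cells for each cohesin gene, as squares with 95% intervals for all 4 libraries, diamonds with the GC correction and triangles without either proliferating library. All intervals cross 0, and the triangles for the fits without replicate 1 and without replicate 2 lie apart for each gene except Mau2.

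The difference between the sets was tested across all genes in a fit with group and replicate number as terms. None of the 10 genes was called in this edgeR test, with adjusted p-values of 0.291 to 0.843, and 0% of all tested genes were called. At an unadjusted p under 0.05, 7 of the 10 genes were lower in replicate 2, as were 8.63% of all tested genes. The values were -1.62 (SE 0.49) for Nipbl, -1.57 (SE 0.60) for Stag2, -1.57 (SE 0.48) for Wapl and -0.48 (SE 0.45) for Rad21 on the log2 scale. Mau2 was at 0.23 (SE 0.43). After a correction for GC content, added after the data were seen, the median of the 10 genes went from -1.36 to -0.74 and 5 had an unadjusted p under 0.05, against 7.13% of all tested genes lower in replicate 2. After a correction for the gene length that the deposited RPKM implies, the median was -1.11. Lower at that p were 6 of the 10 genes and 8.65% of all tested genes.

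The difference between the proliferating libraries was larger in cohesin genes of lower GC content, though not in strict order. Across the 10 genes it correlated with the GC content of the longest transcript with a Pearson's r of 0.93 and a Spearman's rho of 0.79. Across 11597 tested genes these were 0.52 and 0.54. All these points come from the same 2 libraries and the genes are not independent, so the values are a description. Stag2 had the lowest GC content, 38.1%, and the largest difference, while Mau2 had the highest, 51.9%, and a difference of 0.22. Of the 10 genes, 7 lay in the lowest of 5 equal bins of tested genes by GC content, where the median log2 difference of all 2320 genes was -1.16 and those 7 ranged from -2.76 to -1.69. In the highest bin the median was 0.62. Among neurons the Pearson's r over the 10 genes was 0.51 and the Spearman's rho 0.28. Across the 11597 tested genes these were 0.29 and 0.32. Whether GC content had a part in the low values of proliferating replicate 2 was not tested beyond the correction, which left the group comparison with a median of 0.43 and 0 of 10 genes called.

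**Figure D4:**
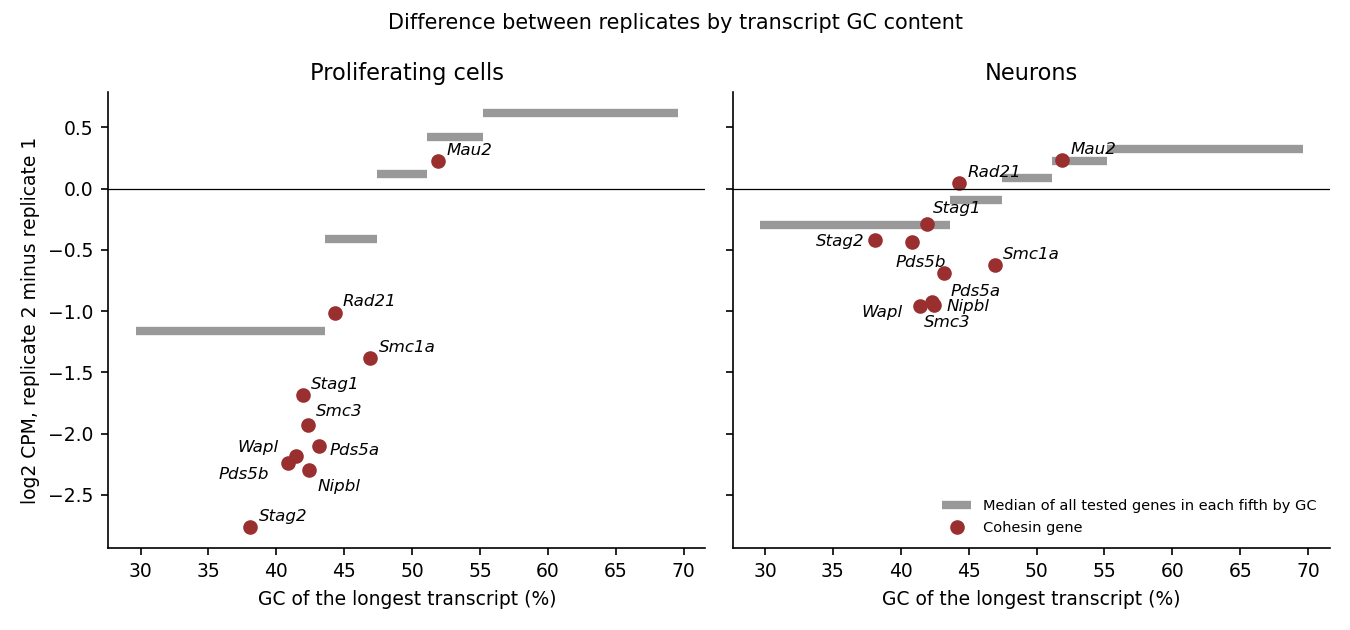
Log2 CPM of replicate 2 minus replicate 1 against the GC content of the longest transcript, for proliferating cells (left) and neurons (right). Points are cohesin genes and grey bars are medians of all tested genes in each of 5 bins by GC content, which run from -1.16 to 0.62 on the left, with Stag2 at the bottom left and Mau2 above 0.

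Ratios between partner genes within a library do not depend on how libraries are scaled. They do not cancel a difference between libraries that depends on a gene's own GC content. Over the longest transcript this was 42.4% in Nipbl and 51.9% in Mau2, and 38.1% in Stag2 and 41.9% in Stag1. It was 42.3% in Smc3 and 46.9% in Smc1a, whose ratio varied less. The part of GC content in the ratios was not tested. The count of Stag2 was 1.88 times that of Stag1 in proliferating replicate 1 (95% exact binomial interval 1.66 to 2.13), 1.95 in neuron replicate 1 (1.73 to 2.20) and 1.78 in neuron replicate 2 (1.53 to 2.07). It was 0.887 in proliferating replicate 2 (0.622 to 1.26), whose interval lies below the other 3. The ratio of Nipbl to Mau2 was 2.80 in proliferating replicate 1 (2.39 to 3.29) and 2.86 in neuron replicate 1 (2.44 to 3.36). In replicate 2 it was 0.480 in proliferating cells (0.358 to 0.639) and 1.25 in neurons (1.04 to 1.51), so both libraries of replicate 2 lay below both of replicate 1. These intervals cover counting error only.

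Other ratios varied less. Pds5b to Pds5a, which encode alternative partners of WAPL, ran from 0.797 to 0.949 over the 4 libraries. Smc3 to Smc1a ran from 0.835 to 1.22, and Wapl to Nipbl from 0.997 to 1.16. Neurons exceeded proliferating cells by 0.53 for Stag2 to Stag1, 0.71 for Nipbl to Mau2, 0.16 for Wapl to Nipbl and 0.05 for the other two on the log2 scale. Two-sided exact permutation p-values over the libraries were 0.333 to 1, all 1 after adjustment over the 5 ratios, and 2 libraries against 2 cannot give less than 0.333. Without proliferating replicate 2 the difference was -0.01 for Stag2 to Stag1 and -0.57 for Nipbl to Mau2.

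**Figure D5:**
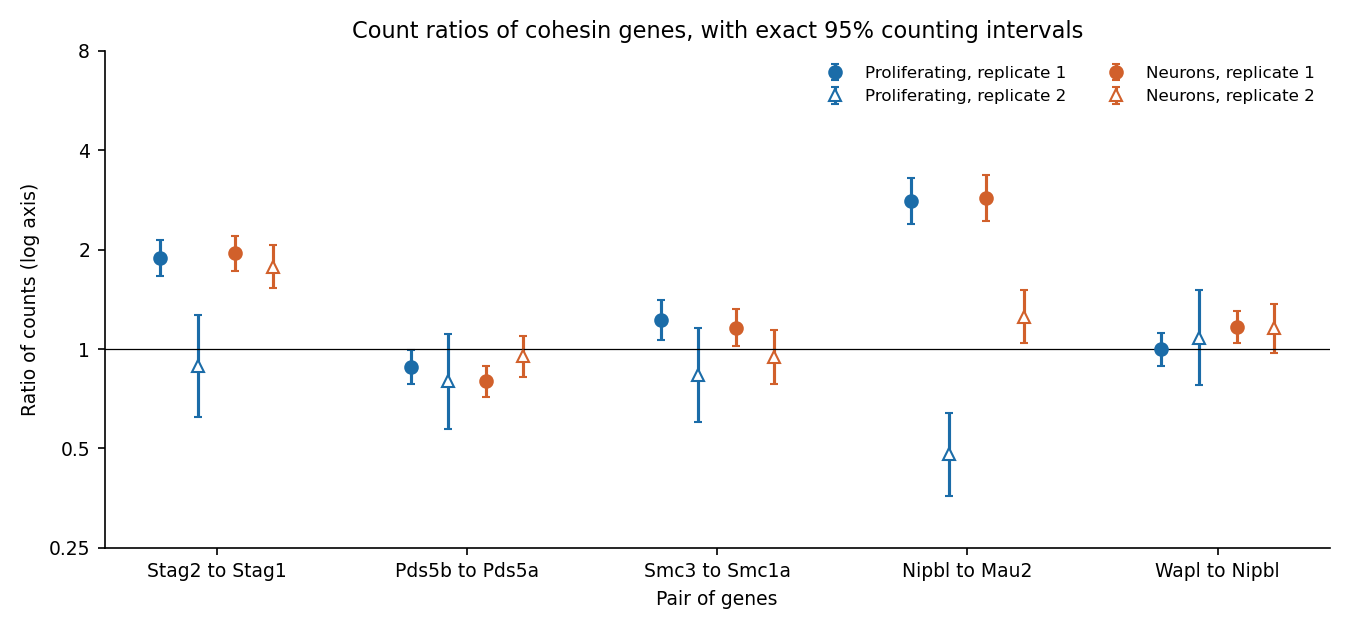
Ratio of counts for 5 pairs of cohesin genes in each library (log axis), with exact 95% counting intervals. Stag2 to Stag1 lies near 1.9 in 3 libraries and at 0.887 in proliferating replicate 2, and Nipbl to Mau2 is lower in both replicate 2 libraries.

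Levels were also compared between genes, as CPM per kilobase of the longest transcript. Rad21 was the highest of the 10 in all 4 libraries, at 12.5 ± 5.98 in proliferating cells and 18.7 ± 0.402 in neurons (SD, n = 2 each). In neurons Stag2 came next at 9.38 ± 1.92, then Wapl at 7.01 ± 3.19, Smc3 at 6.69 ± 2.94, Smc1a at 6.43 ± 1.95, Pds5b at 6.03 ± 1.29 and Pds5a at 5.86 ± 1.94. Stag1 at 5.00 ± 0.699, Nipbl at 4.07 ± 1.84 and Mau2 at 3.59 ± 0.414 closed the order. From Stag2 down to Mau2, neighbours in this order differed by less than the larger of their SDs. The order rests on the length used: the deposited RPKM implies a length of 79112 bases for Stag2, and by that measure Stag2 ranked 7 of 10 in both neuron libraries. Smc3 then ranked first in both libraries of replicate 1, and Rad21 first in both of replicate 2.

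The 7 members with a RefSeq promoter entry in GRCm38.p6 had 54.8% (Mau2) to 80.4% (Pds5a) GC in the 250 bases before the start. Over 32851 windows the median was 52.4% and the quartiles were 45.2% and 61.2%, a range that holds Mau2 and Smc1a (56.8%). The stretches of Pds5a, with both motif matches, and of Mau2, whose level did not follow the others, are shown as far as they lie before the GENCODE start. Capitals mark TTGGCGC and TTCCCGC, forms of the E2F motif, on either strand. The motifs were chosen after the sequences were seen, and the run of capitals that contains TTGGCGC holds overlapping matches on both strands. Both stretches are on the minus strand, at chr5:65698274-65698486 and chr8:70042735-70042984.
Pds5a: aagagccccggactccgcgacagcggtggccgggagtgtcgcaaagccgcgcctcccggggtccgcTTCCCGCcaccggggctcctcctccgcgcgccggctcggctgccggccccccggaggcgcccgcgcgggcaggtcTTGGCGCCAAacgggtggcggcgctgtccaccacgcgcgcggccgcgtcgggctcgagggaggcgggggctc
Mau2: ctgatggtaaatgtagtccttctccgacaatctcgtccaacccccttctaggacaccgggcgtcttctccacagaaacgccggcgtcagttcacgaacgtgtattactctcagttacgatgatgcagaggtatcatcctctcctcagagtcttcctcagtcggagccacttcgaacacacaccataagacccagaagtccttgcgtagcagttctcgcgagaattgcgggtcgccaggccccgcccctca
TTGGCGC was found in 1.97% of all windows and, among the 7 members, in Pds5a and Pds5b, in the latter past the GENCODE start. TTCCCGC was found in 3.82% of all windows and in Pds5a and Stag1. The Stag1 window starts from a RefSeq start 45650 bases from the GENCODE start, inside the GENCODE gene. GGGCGG, the core of the SP1 site, was found in all 7 members and in 32.7% of all windows, and CACGTG, the E-box that MYC binds, in 0 of the 7 and in 6.02%.

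Of 8 genes that set, protect or cut cohesin, all tested, 0 were called in either direction. The median log2 fold change was 0.75, with 7 of 8 above 0, as 52% of all tested genes were, and Cdca5 at -0.06. Esco2, which acetylates SMC3 in S phase, had 63 and 4 counts in proliferating cells and 90 and 44 in neurons. Hdac8, which removes that acetyl group, had 85 and 9 counts and then 150 and 41. Sgo1, which protects cohesin at centromeres, had 73 and 7 counts and then 96 and 59. Proliferating replicate 2 was the lowest library in CPM for all 8 genes and for 37.8% of all tested genes. Espl1, which encodes separase, had 257 and 111 counts in proliferating cells and 252 and 205 in neurons, a log2 fold change of 0.22 (SE 0.46).

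Of the 4 meiotic subunit genes, Rad21l had 0 counts in all 4 libraries, while Smc1b and Rec8 had 0 to 4 counts per library. Stag3 alone was tested. It had 214 and 23 counts in proliferating cells and 24 and 51 in neurons. In TMM-scaled CPM, unlike the 10 genes, Stag3 was highest in proliferating replicate 1 and moved in opposite directions in the pairs. Neurons differed by -3.01 in replicate 1 and 0.71 in replicate 2 on the log2 scale. In the deposited RPKM, proliferating replicate 1 was the highest library for Stag3 and for all 10 genes alike. The fitted log2 fold change of Stag3 was -1.54 with an edgeR unadjusted p of 0.114.

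The related SMC complexes were read in the same way. Of the 8 condensin genes, which compact mitotic chromosomes, 8 were tested, 0 were called and 8 had a fold change above 0. Their median was 0.42, and 52% of all tested genes had a fold change above 0. Smc2, shared by both condensins, had 354 and 17 counts in proliferating cells and 311 and 132 in neurons. In CPM, proliferating replicate 2 was the lowest library for all 8 genes, as it was for 37.8% of all tested genes. Of the 9 genes of the SMC5/6 complex and its partners, which act in DNA repair, 9 were tested, 0 were called and 7 had a fold change above 0, with a median of 0.37. That library was also the lowest in CPM for 7 of these 9 genes. Smc5 had 441 and 42 counts in proliferating cells and 396 and 251 in neurons.

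Among 2262 other genes with a mean of at least 20 CPM, those nearest to the mean profile of the 10 genes over the 4 libraries included Bclaf1, Xrn1, Zbtb44 and Cul5. Their distances, taken between log2 CPM profiles centred on their own means, were 0.09 to 0.13. Bclaf1 had 65.0 and 21.1 CPM in proliferating cells and 78.7 and 55.7 CPM in neurons. The distances of the members themselves ranged from 0.16 for Stag1 to 1.67 for Mau2.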

How the data were processed

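Raw counts per gene symbol and RPKM values were deposited by the authors, with 1 file of each kind per library. Per the submitters' processing notes, HISAT2, SAMtools, featureCounts, DESeq2, deepTools 3.4.3 and the build mm10 were used. The annotation, the strand setting and the treatment of reads with several matches are not given in the sources used here. The deposited RPKM is the count divided by the total count, 18S row included, and by 1 length per gene, recovered from the authors' counts and RPKM.

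The counts were tested with edgeR 4.0.16 in R 4.3.3 (TMM, filterByExpr with minimum count 10 and minimum total 15, glmQLFit, glmQLFTest, two-sided, Benjamini-Hochberg over 12783 genes, threshold 0.05). Differences within pairs are log2 CPM with a prior count of 2. Intervals are 95%. Alternatives used DESeq2 1.42.0, limma 3.58.1 and lowess corrections (span 0.3) for length or for GC content, the latter for 90.7% of tested genes. The length corrected for was the one implied by the deposited RPKM. The edgeR test was checked on simulated counts. Ratios were made with scipy 1.17.1 in Python 3.11.15. Depth limits precision, and without molecular identifiers reads may repeat a molecule. Nothing further says how the replicates were grown, so p-values measure the spread between these libraries.

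The set in the replicate 2 titles was taken as pairing the libraries, although what a set is is not stated. Across genes, libraries with the same number deviated from their group means with a correlation of 0.33. The genes named are the 10 members, genes of lists for other SMC and cohesin-related complexes, cell type markers and the 5 genes nearest in profile, of which 1 is not reported here. Members and lists were chosen with earlier results of these data known.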

Additional observations from a re-analysis of the deposited data

How the results depend on the processing

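The 10 genes stayed uncalled under every scaling, filter, unit, tool and correction that used all 4 libraries, with or without the replicate block. In the fit with the replicate block, edgeR's adjusted p-values of the 10 genes were 0.816 and above, their median log2 fold change was 0.76, and the block changed no call among them. Over the same settings, their fold changes kept their direction in 124 of 130 values. The exceptions were Nipbl with library size alone (-0.11) and Mau2 with library size alone (-0.25), log2(RPKM + 1) (-0.062), log2(RPKM + 0.1) (-0.17), the length correction (-0.18) and, with the block added to it, -0.15.

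Leaving out each library in turn gave 0 to 1 of the 10 genes called and a median of -0.0097 to 1.84. Single genes ranged from -0.0020 to 1.38 for Smc1a, -0.19 to 1.74 for Smc3, 0.16 to 1.15 for Rad21, -0.017 to 1.67 for Stag1, -0.023 to 2.74 for Stag2, -0.36 to 1.94 for Nipbl, -0.12 to 0.14 for Mau2, -0.14 to 2.05 for Wapl, 0.07 to 2.17 for Pds5a and 0.03 to 2.26 for Pds5b. The ratios ranged from -0.014 to 1.07 for Stag2 to Stag1, -0.075 to 0.18 for Pds5b to Pds5a, -0.22 to 0.325 for Smc3 to Smc1a, -0.57 to 1.98 for Nipbl to Mau2 and 0.10 to 0.22 for Wapl to Nipbl.

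Over all genes, the count called was 0 higher and 0 lower, with 438 at an unadjusted p under 0.05. It was 12 and 48 with DESeq2, 41 and 122 without a gene filter, 0 and 2 with library size alone, 0 and 1 with log2(RPKM + 1), and 0 and 2 with log2(RPKM + 0.1). It was 0 and 3 with the replicate block, 0 and 3 with the length correction, 24 and 98 with the replicate block and the length correction, and 22 and 66 with the replicate block and the GC correction. Leaving out a library gave 1 to 54 higher and 9 to 106 lower. For replicate 2 against replicate 1, where 0 genes were called and 1558 had an unadjusted p under 0.05, the count was 6 with RLE size factors, 43 with the GC correction and 118 with the length correction. The GC corrections, and the length correction of that comparison, were chosen after seeing the data. The causes of these differences were not tested. The 63 to 243 counts per gene in proliferating replicate 2 limit what a single gene there can show.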
